A study of Macaca fascicularis with 64 samples.

Results

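The myogenic gene set described here holds 9 genes of the skeletal muscle lineage, chosen by symbol, all 9 of which were found among the 28141 genes of each table: MYOD1, MYF5, MYF6, MYOG, PAX3, PAX7, SIX4, MEF2C and NCAM1. They were chosen with earlier results of these data known, so their contrasts with all genes are descriptive. RNA was sequenced in bulk from tissues of cynomolgus monkeys (Macaca fascicularis). At the newborn stage, KO2 and KO3 were labelled SIRT6 knockout (KO), and WT2 and WT3 wild type (WT). Each of these 4 animals gave 2 libraries of muscle, brain, thymus, liver, heart, lung and kidney, 56 libraries in all. The fetal set held 8 wild-type libraries, 2 each of muscle and brain at gestation months 2 and 4. SIRT6 encodes a nuclear deacetylase that acts on histones, and the series title names developmental retardation in its absence. The sources used here do not give the kind of SIRT6 mutation, the muscle sampled or the sex of the animals.

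Muscle progenitors of the embryo carry the paired-box factors PAX3 and PAX7, and PAX7 stays on in satellite cells, the stem cells that lie against the fibres of formed muscle. MYF5 and MYOD1 commit these progenitors to the myoblast fate, MYOG drives myoblasts to exit the cell cycle and build fibres, and MYF6, also called MRF4, is the member of this family of basic helix-loop-helix factors that is most abundant in mature fibres of the mouse. SIX4 is a homeobox factor that acts upstream of the family, MEF2C is a DNA-binding partner of it, and NCAM1 is a cell adhesion molecule of neurons, satellite cells, immature fibres and denervated fibres. MYF5 and MYF6 are neighbouring genes in the RefSeq annotation of the species.

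Levels are FPKM, fragments of a gene normalised for its length and for the mapped total of the library. Changes were tested with limma on log2(FPKM + 1), a scale that understates the changes of low genes, and a gene was called at a Benjamini-Hochberg adjusted p under 0.05 over all genes tested. Each newborn test set 2 KO against 2 WT animals, each the mean of its 2 libraries. All 13 listed markers of skeletal muscle were above 1 FPKM in every newborn muscle, and their summed level was 53063 FPKM in KO2 and 35929 FPKM in KO3, against 82766 FPKM in WT2 and 69220 FPKM in WT3. SIRT6 mRNA was present in all newborn muscles, at 4.99 FPKM in KO2 and 8.81 FPKM in KO3, against 8.13 FPKM in WT2 and 8.36 FPKM in WT3, so its level does not check the genotype labels. KO2 stood apart from the other 3 animals: HSP90AA1, a heat shock chaperone, was between 2420 and 5522 FPKM over its 7 tissues, and between 57.5 and 348 FPKM in the tissues of the others. Repeat libraries of an animal differed by a median of 0.086 to 0.1 on the log2 scale in muscle, the 2 KO animals by 0.581 and the 2 WT animals by 0.345. In bulk tissue, fewer cells of a type and less RNA per cell cannot be told apart.

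In newborn muscle, NCAM1 was the 1 member of 8 tested that passed, and it was higher in KO muscle. Over all 12087 genes tested, 2.32% were called, 0.745% higher and 1.58% lower. Every KO library was above every WT library for 5 of the 8 tested members (NCAM1, MYOD1, MYOG, PAX7 and SIX4), where 16.2% of all genes had that pattern. Every KO library was below every WT library for MYF6 alone, where 15.4% of all genes had that pattern. The median log2 change was 0.73 over the 8 members, and the median over all genes was 0.

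**Figure D1:**
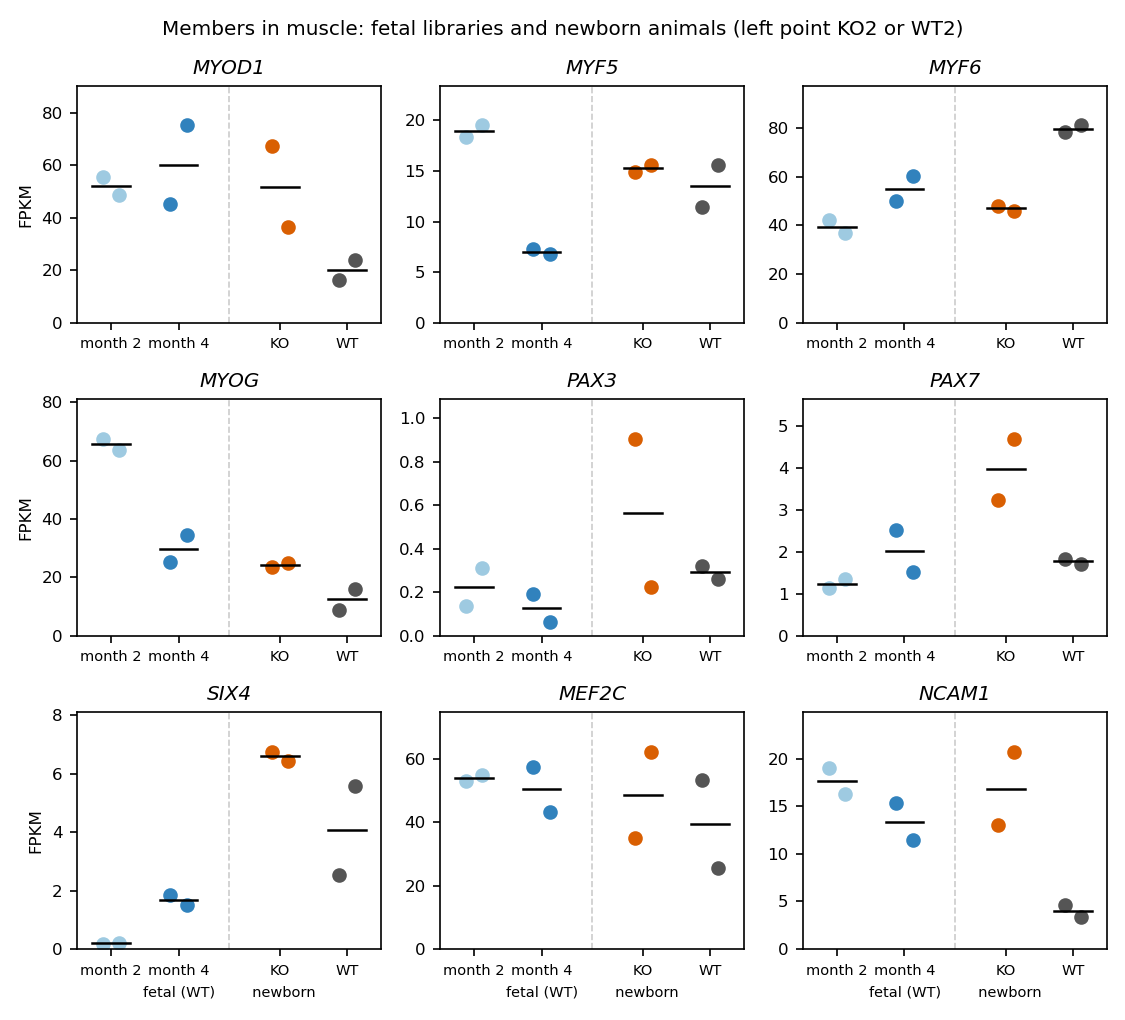
FPKM of each member in muscle, with 1 panel per gene and its own vertical axis from 0; points left of the dashed line are fetal wild-type libraries of months 2 and 4, points right of it are newborn animals (KO2 or WT2 is the left point of its pair), and the bar is the mean. The fetal and newborn tables were normalised separately. Both KO animals lie above both WT animals for NCAM1, MYOD1, MYOG, PAX7 and SIX4, and below both for MYF6.

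NCAM1 stood at 12.6 and 13.4 FPKM in the libraries of KO2 and 20.8 and 20.5 FPKM in those of KO3, against 5.09 and 4.16 FPKM in WT2 and 3.53 and 3.23 FPKM in WT3. The lowest KO library was well above the highest WT library. The mean was 16.8 ± 5.42 FPKM in KO and 4 ± 0.881 FPKM in WT (SD, n = 2 animals each), a ratio of 4.21. The log2 change was 1.81 (SE 0.49, 95% interval 0.8 to 2.83, limma adjusted p = 0.048). The call was lost whichever animal was left out, with limma adjusted p of 0.077 without KO2, 0.097 without KO3, 0.35 without WT2 and 0.7 without WT3, although the log2 change stayed between 1.50 and 2.13. It was also lost after quantile normalisation (adjusted p = 0.095), with the animal number as a block (adjusted p = 0.056), with a filter at 5 FPKM (adjusted p = 0.052) and with no level filter (adjusted p = 0.4).

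NCAM1 is also made by nerve and Schwann cells, so the 10 markers of these cells are given beside it. Their summed level was 142 FPKM in KO2 and 2562 FPKM in KO3, against 337 FPKM in WT2 and 195 FPKM in WT3. Both KO animals were above both WT animals for 5 of the 10, a pattern whose share over all genes was not counted by animal. Among the 8 tested, NGFR, the low-affinity nerve growth factor receptor, passed, at 19.9 FPKM in KO2 and 12.5 FPKM in KO3, against 3.38 FPKM in WT2 and 4.07 FPKM in WT3 (log2 change 1.83, limma adjusted p = 0.044). Its level was highest in KO2 in every newborn tissue but liver. In heart NGFR was at 17.2 FPKM in KO2 and 5.11 FPKM in KO3, against 6.23 FPKM in WT2 and 5.66 FPKM in WT3. The neurofilament genes NEFL and NEFM, which were among those 5, stayed under 1 FPKM in all 4 muscles. The count was also 5 of the 10 in liver, where NCAM1 was lower in both KO animals. In muscle of KO2, where the summed level of these markers was below that of both WT animals, NCAM1 was still above both.

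Among the determination factors, MYOD1 had the largest fitted difference after NCAM1. Its libraries read 66.7 and 67.9 FPKM in KO2 and 37.1 and 35.6 FPKM in KO3, against 16.3 and 16.4 FPKM in WT2 and 22.2 and 25.1 FPKM in WT3. KO2 was the highest animal by far, and the KO and WT libraries did not overlap. The mean was 51.8 ± 21.9 FPKM in KO and 20 ± 5.16 FPKM in WT (SD, n = 2), a ratio of 2.59. The limma log2 change of 1.29 (SE 0.47, 95% interval 0.31 to 2.26) had an unadjusted p of 0.012 and did not pass over all genes (adjusted p = 0.19). Without KO2 the log2 change of MYOD1 was 0.85 (limma adjusted p = 0.38).

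MYF5, its partner in determination, was close to level, with 14.9 FPKM in KO2 and 15.6 FPKM in KO3, against 11.4 FPKM in WT2 and 15.6 FPKM in WT3. The interval of its log2 change of 0.17 ran from -0.8 to 1.15 (limma adjusted p = 0.94), a range that holds sizeable changes either way.

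The differentiation factors lay on opposite sides. MYOG was at 22.7 and 24 FPKM in the KO2 libraries and 25 and 25.2 FPKM in the KO3 libraries, against 9.21 and 8.43 FPKM in WT2 and 15.7 and 16.5 FPKM in WT3. The 2 KO animals were nearly alike, while WT3 was well above WT2. The ratio of means was 1.95, and the log2 change of 0.96 (SE 0.48) did not pass (limma adjusted p = 0.39). MYF6 was at 46.9 and 48.8 FPKM in KO2 and 46.5 and 45.5 FPKM in KO3, against 74.3 and 82.2 FPKM in WT2 and 79.8 and 82.1 FPKM in WT3. Animals of one genotype differed little for MYF6, at 46.9 ± 1.28 FPKM in KO and 79.6 ± 1.93 FPKM in WT (SD, n = 2), a ratio of 0.589. The log2 change of -0.75 (SE 0.43, 95% interval -1.64 to 0.14) did not pass (limma adjusted p = 0.5), in a fit that draws each gene's spread towards that of other genes of like level.

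PAX7, the satellite cell factor, was low in all muscles, at 3.57 and 2.88 FPKM in KO2 and 4.82 and 4.57 FPKM in KO3, against 1.94 and 1.73 FPKM in WT2 and 1.74 and 1.69 FPKM in WT3. The ratio of means was 2.23 with no overlap of libraries, and the log2 change of 0.82 (SE 0.47) did not pass (limma adjusted p = 0.5). PAX3 had a mean below 1 FPKM and was not tested. Its repeat libraries disagreed, with 1.18 and 0.632 FPKM in KO2 and 0.352 and 0.0911 FPKM in KO3, against 0.544 and 0.0993 FPKM in WT2 and 0.236 and 0.288 FPKM in WT3. At this level no order of the groups can be read.

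SIX4 was at 6.82 and 6.68 FPKM in KO2 and 6.01 and 6.9 FPKM in KO3, against 2.61 and 2.5 FPKM in WT2 and 5.77 and 5.41 FPKM in WT3. WT3 was only just under the KO animals, and WT2 was the animal that stood low (log2 change 0.65, SE 0.5, limma adjusted p = 0.67). MEF2C showed no separation, with 35 FPKM in KO2 and 62.3 FPKM in KO3, against 53.3 FPKM in WT2 and 25.6 FPKM in WT3. Its log2 change of 0.33 had a 95% interval of -0.66 to 1.32 (limma adjusted p = 0.87). Animals of one genotype differed more in MEF2C than the 2 genotype means did.

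**Figure D2:**
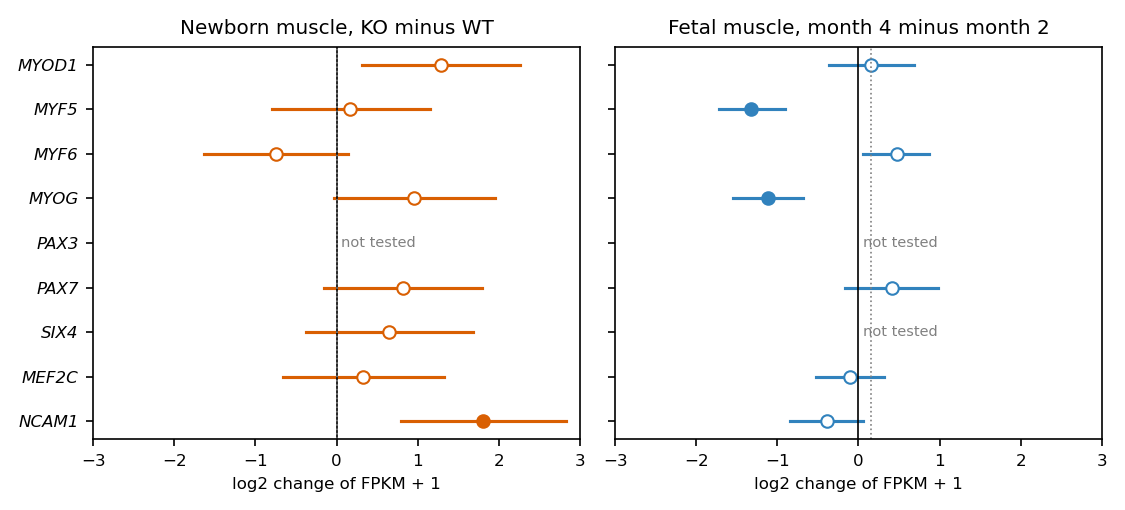
Fitted log2 changes of FPKM + 1 for the members, KO minus WT in newborn muscle (left) and month 4 minus month 2 in fetal muscle (right), with 95% intervals from limma; filled points passed an adjusted p of 0.05, and the dotted line is the median of all genes tested. NCAM1 passed in newborn muscle at 1.81, and MYF5 and MYOG passed in fetal muscle at -1.32 and -1.12.

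The other muscle lists are read against all genes tested in newborn muscle, of which 2.32% were called and 1636 of 12087 had an unadjusted p under 0.05. With limma, none of 27 other myogenic regulators passed, 7 of them having an unadjusted p under 0.05, and their median log2 change was 0.40. None of 17 satellite cell genes passed either, 7 having an unadjusted p under 0.05, with a median of 0.51. The same held for 9 fusion genes, with 1 under an unadjusted p of 0.05 and a median of 0.33, and for 6 proliferation genes, with 0 under it and a median of 0.36. At that share of all genes, lists of this size would hold few calls or none. Of 16 tested genes switched on in early myotubes, 3 rose and none fell, with a median of 0.61. These were the embryonic and perinatal myosin heavy chains, MYH3 and MYH8, and CHRNG, the acetylcholine receptor subunit of fetal muscle. CHRNG was at 18.3 FPKM in KO2 and 28 FPKM in KO3, against 3.87 FPKM in WT2 and 1.72 FPKM in WT3 (log2 change 2.72, limma adjusted p = 0.0037). MYH3 was at 468 FPKM in KO2 and 306 FPKM in KO3, against 14.3 FPKM in WT2 and 4.16 FPKM in WT3. MYH genes are near-identical copies of each other in places, so the way reads were shared among them is uncertain.

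CHRNG and NCAM1 were also the 2 genes that rose among 9 tested genes that respond to denervation. That list holds NCAM1 and MYOG, both members, and CHRNG of the early myotube list, so it is not separate from them. Its median of 0.96 equals the change of MYOG, 0.96. Among the 13 skeletal muscle markers, ACTA1, the skeletal alpha actin, and MYH1, an adult fast myosin, fell, and no marker rose. ACTA1 was at 19680 FPKM in KO2 and 10314 FPKM in KO3, against 46164 FPKM in WT2 and 36891 FPKM in WT3. The markers of macrophages held 3 genes that fell in KO muscle, C1QA, C1QB and C1QC, and the summed level of that list was 2.28 FPKM in KO2 and 34.7 FPKM in KO3, against 86 FPKM in WT2 and 47.9 FPKM in WT3. No endothelial marker of 10 tested, no fibroblast marker of 9 and no adipocyte marker of 8 passed in limma, where 1, 4 and 1 of them had an unadjusted p under 0.05. The erythroid list held 1 gene that rose and 1 that fell. The part of these other cells in the members' values was not tested.

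In fetal muscle, MYF5 and MYOG fell at month 4 relative to month 2, and the other 5 members tested did not pass. These 2 calls are of 7 members tested, while 37.9% of all 12352 genes were called, 22.3% higher and 15.7% lower, so the members' share was no higher than that of all genes. The median change of all genes was 0.16 on the log2 scale, and values relative to it are given beside each change. Whether the 2 libraries of a month came from separate fetuses is not stated, so the p-values reflect the spread between libraries alone. That spread had a median of 0.294 on the log2 scale at month 4 and 0.157 at month 2.

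MYF5 read 7.24 and 6.8 FPKM at month 4, against 18.4 and 19.5 FPKM at month 2. Both months were tight and far apart, with means of 7.02 ± 0.31 FPKM at month 4 and 19 ± 0.809 FPKM at month 2 (SD, n = 2 libraries), a ratio of 0.37. The log2 change was -1.32 (SE 0.18), or -1.48 relative to all genes (limma adjusted p = 0.0006). MYOG read 25.4 and 34.4 FPKM at month 4, against 67.5 and 63.6 FPKM at month 2, a ratio of 0.456. Its log2 change was -1.12 (SE 0.19), or -1.29 relative to all genes (limma adjusted p = 0.0019). With each library left out in turn, the log2 change stayed between -1.36 and -1.27 for MYF5 and between -1.33 and -0.91 for MYOG.

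MYOD1 was at 45.2 and 75.2 FPKM at month 4, against 55.5 and 48.5 FPKM at month 2. The 2 month 4 libraries fell on either side of the month 2 pair (log2 change 0.16, limma adjusted p = 0.6). MYF6 was higher in both month 4 libraries, at 49.8 and 60.1 FPKM, against 42 and 36.8 FPKM at month 2. Its log2 change of 0.47, or 0.30 relative to all genes, did not pass (limma adjusted p = 0.065). NCAM1 was lower in both month 4 libraries, at 15.3 and 11.4 FPKM, against 19 and 16.3 FPKM at month 2, and did not pass (log2 change -0.39, or -0.55 relative to all genes, limma adjusted p = 0.15). MEF2C overlapped between the months, at 57.6 and 43.4 FPKM at month 4, against 53.2 and 55.1 FPKM at month 2.

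PAX7 was at 2.51 and 1.52 FPKM at month 4, against 1.13 and 1.35 FPKM at month 2 (limma adjusted p = 0.23). SIX4 had a mean below 1 FPKM and was not tested in the main fit. It differed the most in ratio of the members, at 1.86 and 1.52 FPKM at month 4, against 0.178 and 0.21 FPKM at month 2, a ratio of 8.7. With no level filter 3 members passed in limma: MYF5, MYOG and 1 that the filter removes. From the values that is SIX4, as PAX3 overlapped between the months. PAX3 was below 1 FPKM in all fetal muscle libraries, at 0.191 and 0.0649 FPKM at month 4, against 0.139 and 0.31 FPKM at month 2. Both month 4 libraries were above both month 2 libraries for 2 of the 7 tested members, where 44.3% of all genes had that pattern, and below for 3, where 29.2% did. With 1 library of month 4 left out, the spread comes from the month 2 pair alone, so calls of such fits are not given. Without library 1 the log2 change was 0.53 for MYOD1, 0.60 for MYF6, -0.58 for NCAM1 and 0.17 for PAX7. Without library 2 it was -0.20, 0.33, -0.19 and 0.65 in the same order.

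The muscle lists held genes that rose and genes that fell between the fetal months, at shares to be read against the 22.3% higher and 15.7% lower of all genes. Among 18 satellite cell genes, 3 rose and 4 fell. FGFR4, a growth factor receptor of myoblasts, was at 8.4 and 11 FPKM at month 4, against 42 and 43.2 FPKM at month 2 (log2 change relative to all genes -2.20, limma adjusted p = 8.1e-05). CDH15, the muscle cadherin, was at 37 and 48.6 FPKM at month 4, against 147 FPKM in both month 2 libraries. Of 10 fusion genes, 3 fell and 1 rose, and those that fell included both fusogens of myoblasts, TMEM8C, also called myomaker, and MYMX, myomixer. TMEM8C was at 14.8 and 26 FPKM at month 4, against 70.8 and 71.8 FPKM at month 2 (log2 change relative to all genes -1.97, limma adjusted p = 0.00048).

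Of 17 early myotube genes, 8 fell and 3 rose, led by MYL4, the embryonic and atrial myosin light chain, at 3.23 and 1.96 FPKM at month 4, against 324 and 272 FPKM at month 2. The other myogenic regulators held 8 genes that rose and 7 that fell among 27. MSTN, which encodes myostatin, an inhibitor of muscle growth, rose to 13.7 and 11.8 FPKM at month 4, against 0.397 and 1.1 FPKM at month 2. MSC, a repressor of the MYOD1 family, fell to 14.8 and 10.9 FPKM at month 4, against 45.5 and 35.2 FPKM at month 2. Of 15 proliferation genes, 5 fell and none rose, and of 13 skeletal muscle markers, 9 rose and none fell. Markers of other cells moved as well: 7 of 7 adipocyte markers, 7 of 8 Schwann cell and nerve markers, 5 of 10 endothelial markers and 5 of 9 fibroblast markers rose, and 5 of 9 macrophage markers fell. Their part in the members' values was not tested.

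Fetal brain gave a second tissue at the same months. MYF5 and PAX7 were listed at 0 in all 4 fetal brain libraries, and MYOD1, MYOG, PAX3 and SIX4 did not exceed 0.203 FPKM there, while MYF6 was between 0.515 and 0.854 FPKM. The month change in muscle minus that in brain was -1.32 for MYF5 (limma adjusted p = 0.013) and -1.10 for MYOG (limma adjusted p = 0.031), 2 of 6 members tested, where 14% of 13742 genes were called. With brain at or near 0 at both months, these differences repeat the muscle change and say nothing of brain. With a pseudocount of 0.1 neither passed, at limma adjusted p of 0.075 for MYF5 and 0.14 for MYOG. With no level filter MYOG did not pass either (limma adjusted p = 0.059). The members that brain does make did not pass between the months there, where 4.01% of genes were called. MEF2C was at 240 and 166 FPKM in month 4 brain, against 122 and 165 FPKM in month 2 brain (limma adjusted p = 0.39), and NCAM1 was at 187 and 172 FPKM at month 4, against 148 and 190 FPKM at month 2 (limma adjusted p = 0.86). Neither had an unadjusted p under 0.05.

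The balance of MYOD1, MYF5, MYF6 and MYOG can be set side by side over the 2 tables as the share of each in their summed FPKM, because the scaling of a library cancels in a share. This measure was chosen after the values were seen and was not tested. MYF6 made up 22.4% ± 0.742 of the sum at month 2, 36.6% ± 3.52 at month 4, 34.3% ± 4.39 in newborn KO muscle and 63.8% ± 6.15 in newborn WT muscle (SD, n = 2 each). It was the smaller part in the fetus and in KO muscle, and the greater part in WT muscle alone. KO2 at 31.2% and KO3 at 37.4% lay close to the month 4 libraries, at 39% and 34.1%, and far below WT2 at 68.1% and WT3 at 59.4%. MYOD1 took a larger share in the fetus and in KO muscle than in WT muscle, with 29.5% ± 1.04 at month 2, 39% ± 5.1 at month 4, 36.7% ± 10.1 in KO and 15.8% ± 2.2 in WT. MYOG made up 37.3% ± 0.67 at month 2, 19.7% ± 0.288 at month 4, 17.8% ± 3.65 in KO and 9.73% ± 2.91 in WT.

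MYF5 did not follow that order, with 10.8% at month 2, 4.76% at month 4, 11.2% in KO and 10.7% in WT. The sum itself differed less than the shares, with means of 176 FPKM at month 2, 152 FPKM at month 4, 138 FPKM in KO and 126 FPKM in WT. FPKM of the separately normalised tables can only be set side by side. NCAM1 had means of 17.6 FPKM at month 2, 13.3 FPKM at month 4, 16.8 FPKM in KO and 4 FPKM in WT. SIX4 had means of 0.194 FPKM at month 2, 1.69 FPKM at month 4, 6.6 FPKM in KO and 4.07 FPKM in WT.

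**Figure D3:**
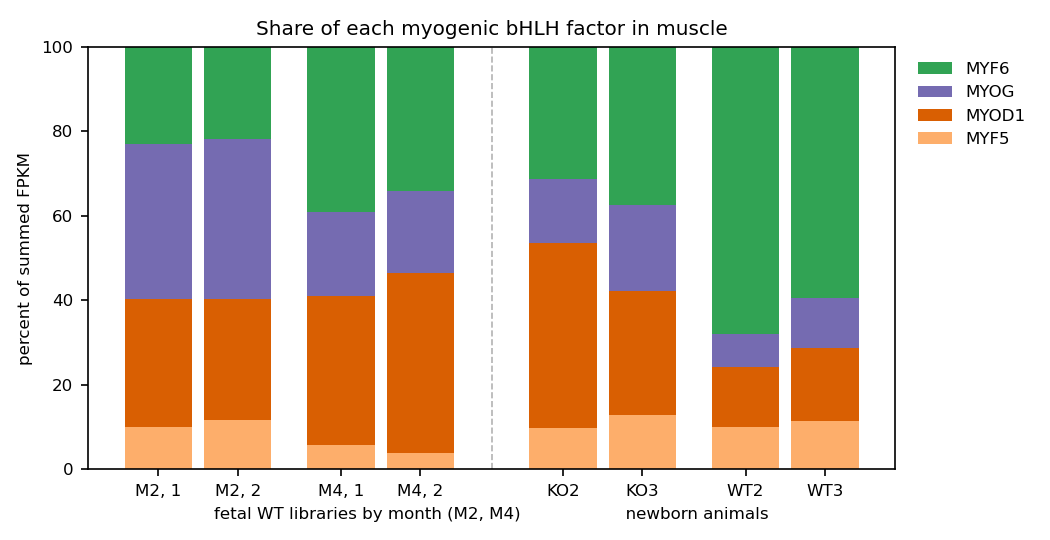
Share, in percent, of MYF5, MYOD1, MYOG and MYF6 in their summed FPKM in muscle, with 1 stacked bar for each fetal library (M2 and M4, months 2 and 4) and each newborn animal. MYF6 takes 31.2% and 37.4% in the KO animals and 68.1% and 59.4% in the WT animals.

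Outside muscle, 6 members were at or near 0 in newborn tissues. Of the 48 newborn libraries from the other 6 tissues, PAX7 was listed at 0 in 47, PAX3 in 44, MYF5 in 40, MYOD1 in 36, MYF6 in 17 and MYOG in 10. A value listed at 0 can be a failed estimate. The highest level outside muscle was 0.0154 FPKM for PAX7, 0.0786 FPKM for PAX3, 0.207 FPKM for MYF5, 0.387 FPKM for MYOD1, 0.408 FPKM for MYOG and 1.15 FPKM for MYF6. That MYF6 value came from a brain library of KO3. Brain also held skeletal muscle genes at a low level, with ACTA1 at 38.5 FPKM in KO2 and 66.4 FPKM in KO3, against 5.14 FPKM in WT2 and 5.84 FPKM in WT3, though none of the 8 muscle markers tested passed in brain with limma, 6 having an unadjusted p under 0.05. The part of such RNA in the MYF6 level of brain was not tested.

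SIX4, MEF2C and NCAM1 were above 0 in every newborn library, though SIX4 had a mean of only 0.0448 FPKM in WT liver and 0.136 FPKM in WT brain. For NCAM1 the order by mean was brain, heart, muscle, kidney in both genotypes, and no neighbours in that order overlapped between animals of one genotype. The means were 66.9 FPKM in KO and 111 FPKM in WT in brain, and 31.5 FPKM in KO and 23.9 FPKM in WT in heart. Lung, liver and thymus were lowest, between 0.356 and 1.02 FPKM in KO and between 0.319 and 0.816 FPKM in WT, and neighbours among these 3 overlapped in WT. MEF2C was highest in brain, at 87.2 ± 60.1 FPKM in KO and 236 ± 122 FPKM in WT, and came next in muscle, which overlapped brain in KO and not in WT. Its other tissues were between 1.52 and 5.77 FPKM in KO and between 2.31 and 9.74 FPKM in WT, with the heart first. SIX4 was highest in muscle in both genotypes. Kidney came next, apart from the other tissues in WT at 1.49 FPKM, but overlapping brain, liver and thymus in KO at 1.72 FPKM.

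**Figure D4:**
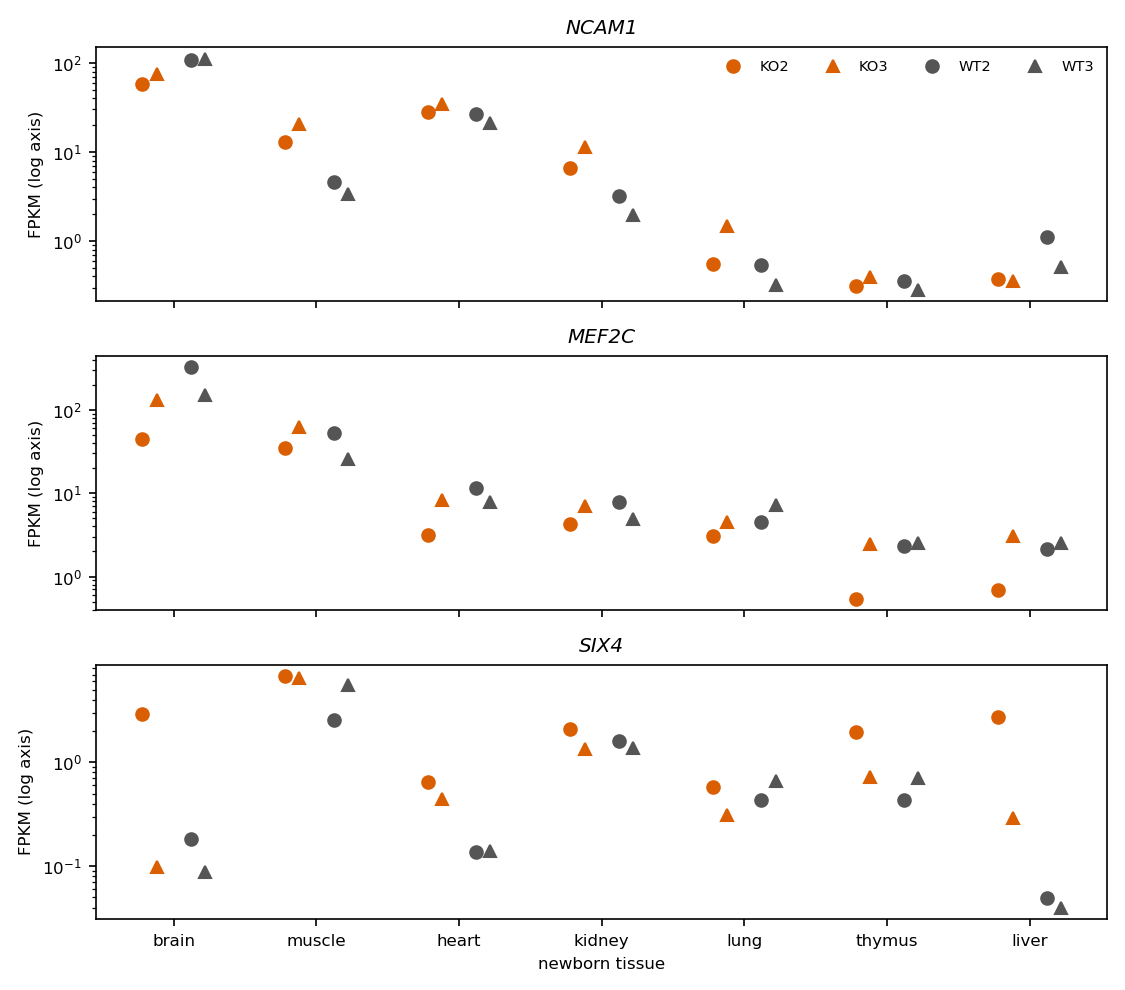
FPKM of NCAM1, MEF2C and SIX4 in the 7 newborn tissues on log axes, with 1 point per animal (the mean of its 2 libraries), KO in orange left of WT in grey. NCAM1 is higher in both KO animals in muscle, heart, kidney and lung and lower in both in brain and liver, and SIX4 is highest in KO2 in every tissue but lung.

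No member passed in any of these 6 tissues, where 2 members were tested in brain, 2 in heart, 3 in kidney and 1 each in thymus, liver and lung. The share of all genes called by limma was 0% in brain, with 1701 genes at an unadjusted p under 0.05, 0% in lung, with 963, and 0.00772% in thymus. It was 1.1% in liver, 0.18% in heart and 5.78% in kidney. One member, NCAM1 in kidney, had an unadjusted p under 0.05.

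NCAM1 in kidney was at 6.67 FPKM in KO2 and 11.4 FPKM in KO3, against 3.19 FPKM in WT2 and 1.94 FPKM in WT3. Every KO library was above every WT library there too, a pattern whose share over all genes was not counted in kidney. The log2 change of 1.48 (SE 0.36) fell just short (limma adjusted p = 0.051). It passed after quantile normalisation (adjusted p = 0.042), without KO2 (adjusted p = 0.027), with the animal as a correlated unit (adjusted p = 0.028) and with libraries as replicates (adjusted p = 0.0013), all in limma. It did not pass without KO3 (adjusted p = 0.099), WT2 (0.14) or WT3 (0.28), nor with no level filter (0.21), a filter at 5 FPKM (0.065), a pseudocount of 0.1 (0.052) or the block (0.061). The Schwann cell and nerve markers of kidney summed to 32.1 FPKM in KO2 and 36 FPKM in KO3, against 33.1 FPKM in WT2 and 34.4 FPKM in WT3. Both KO animals were above both WT animals for 3 of the 10, a pattern whose share over all genes was not counted. NGFR was among them, at 13.5 FPKM in KO2 and 4.99 FPKM in KO3, against 1.96 FPKM in WT2 and 2.9 FPKM in WT3. None of 9 tested passed in limma, 3 having an unadjusted p under 0.05, and the part of these cells in the NCAM1 values of kidney was not tested. In brain the order was the other way, with NCAM1 at 58.4 FPKM in KO2 and 75.4 FPKM in KO3, against 109 FPKM in WT2 and 112 FPKM in WT3. The log2 change in brain was -0.73, or -0.53 relative to the median of all genes in brain, which was -0.20 (limma adjusted p = 0.39).

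The KO change of NCAM1 in muscle minus its KO change in brain was 2.54 (SE 0.44, limma adjusted p = 0.15), or 2.37 relative to all genes, whose median was 0.18. Against the mean of the other 6 tissues, the difference in NCAM1 was 1.61 (SE 0.3, unadjusted p = 0.001, limma adjusted p = 0.15), or 1.47 relative to all genes. None of the 8 members tested passed in either comparison, in which 0.0642% and 0.0655% of all genes were called by limma. In the comparison with 6 tissues, 6 of the 8 members had an unadjusted p under 0.05, as did 1900 of all 15271 genes, and in the one with brain 3 did, as did 1541 of 14029. MYOD1, MYF5, MYF6, MYOG and PAX7 are at or near 0 in the other tissues, so their differences largely repeat the muscle change.

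MEF2C in brain was at 44.7 FPKM in KO2 and 130 FPKM in KO3, against 323 FPKM in WT2 and 150 FPKM in WT3. All KO libraries were below all WT libraries, a pattern whose share over all genes was not counted in brain. Each genotype spanned a wide range, and the log2 change of -1.52, or -1.31 relative to all genes, did not pass (limma adjusted p = 0.39). Without KO3 it was -2.28 and passed (limma adjusted p = 0.032). It was -0.76 without KO2 (adjusted p = 0.44), -0.97 without WT2 (adjusted p = 0.95) and -2.07 without WT3 (adjusted p = 0.96). In all 6 tissues other than muscle KO2 was the lowest of the 4 animals for MEF2C, down to 0.542 FPKM in thymus. SIX4 ran the other way in that animal, which held its highest level in 6 of 7 tissues. In liver SIX4 was at 2.72 FPKM in KO2 and 0.289 FPKM in KO3, against 0.0497 FPKM in WT2 and 0.04 FPKM in WT3, and in brain at 2.91 FPKM in KO2 and 0.0989 FPKM in KO3, against 0.183 FPKM in WT2 and 0.0888 FPKM in WT3.

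The genes whose levels were most like each member's were sought over the 28 newborn animal-by-tissue values of log2(FPKM + 1), among 13374 genes. The points share libraries and animals, and Pearson's r is given as a description. The muscle-restricted members were nearest to other genes of muscle: MYF6 to CACNA1S, the calcium channel of the T-tubule, SYPL2 and CA3 (r of 0.996, 0.996 and 0.995), MYF5 to PRKAG3, PPP1R27 and SCN4A, and PAX7 to KCNA7, ATP1B4 and ARHGAP36. MYOD1 was nearest to KCNA7, ARHGAP36 and PRKAG3 (0.985, 0.985 and 0.984). MYOG was nearest to ARHGAP36, LBX1, a homeobox factor of migrating muscle precursors, and SCN4A (0.989, 0.986 and 0.983). For the members also made in brain the nearest genes were brain genes or broader ones: MEF2C with genes that include PPP3CB and CAMK2A (0.928 each) and NCAM1 with HDAC9, FXYD6 and SLC4A3 (0.939, 0.922 and 0.912). SIX4 had the loosest match, with r of 0.868 for MAFA.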

How the data were processed

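Bulk RNA sequencing covered 64 libraries, 56 newborn and 8 fetal. Tools named, without their roles, are HISAT 0.1.6, Cufflinks 2.0.2 and CASAVA, per the submitters' processing notes. The genome build, annotation and strandedness were not given in the sources used here. The authors deposited FPKM in a newborn and a fetal table, normalised separately. Depth is unknown in reads, and the steps between low FPKM values put the muscle libraries within 0.841 to 1.04 (newborn) and 0.94 to 1.12 (fetal) of each other. PAX7 was read from an unnamed identifier through its RefSeq gene ID, 1 of 721 among 11294 such identifiers given a symbol.

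Limma 3.58.1 in R 4.3.3 (statmod 1.5.0) was fitted with a trend to log2(FPKM + 1), on genes with a mean of 1 FPKM or more over the comparison, with a threshold of adjusted p 0.05. Newborn values were means of an animal's 2 libraries. An exact permutation test of 2 against 2 cannot go below p = 0.33. The fits were tested on simulated data. The members and gene lists were chosen with earlier results of these data known. All members were named; other genes were named from the lists if past the threshold, up to 4 per list by p, or as the 3 nearest in level; SIRT6 was named as the targeted gene, and HSP90AA1 and the neurofilament genes were added after their values were seen. A few genes that these rules would name are not reported here. Alternatives were a pseudocount of 0.1, a filter at 5 FPKM or none, quantile normalisation, libraries as replicates, the animal as a correlated unit, a replicate block, and each animal or library left out in turn. Numbers were not taken to pair animals: the deviations of same-numbered animals from their group means correlated at 0.03 in newborn muscle.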

Additional observations from a re-analysis of the deposited data

Results flagged for a closer look

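NCAM1 in KO against WT animals lay on opposite sides in brain and in muscle, heart and kidney, with every KO library on one side of every WT library in each. Of these tissues it passed in muscle alone. In heart the KO libraries were between 28.2 and 35.5 FPKM and the WT libraries between 20.7 and 27.3 FPKM. The log2 change there was 0.39 (limma adjusted p = 0.88). In muscle 16.2% of all genes had every KO library above every WT library. That share was not counted in the other newborn tissues. In liver every KO library was below every WT library, as in brain, but the mean was under 1 FPKM and it was not tested. In lung the KO animals were also above the WT animals, but the libraries overlapped and the mean was under 1 FPKM, so it was not tested. The KO change in muscle minus that in brain was 2.54, and this difference, tested after it was seen, did not pass (limma adjusted p = 0.15; range over alternatives 0.058 to 0.55). The KO change in brain minus that in heart was -1.12, and in brain minus that in kidney -2.21; these differences were not tested.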

How the results depend on the processing

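Calls in newborn muscle depended on the settings. Against 281 genes, 0 were called with no level filter, 180 with a filter at 5 FPKM, 14 after quantile normalisation, 2768 with libraries as replicates, and 103 to 367 with 1 animal left out. The 1 member called became 0 with no filter, a filter at 5 FPKM, quantile normalisation, the replicate block and each animal left out (0 to 0), and 5 with libraries as replicates. In fetal muscle, against 4687 genes, 2488 were called with no filter, 3012 with the filter at 5 FPKM and 1905 to 6756 with 1 library left out; the 2 members called were 2 to 5. With no level filter, 3 members were called in fetal muscle. A pseudocount of 0.1 left 0 of the 2 members called in the month change of muscle against brain. With no level filter MYOG lost its call there (limma adjusted p = 0.059), though the count of members called stayed at 2. In the other newborn tissues, 0 members became 1 with quantile normalisation, 3 with libraries as replicates, 1 with the animal as a correlated unit and 0 to 2 with an animal left out. The replicate block changed no other count of members; it gave 255 genes in newborn muscle and 5611 in fetal muscle.

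Of 423 values over 49 single-gene results, 378 kept their direction and side of the threshold, 15 passed newly, 11 no longer passed and 19 turned in direction, none of the last past the threshold. Leaving out an animal or library in turn gave -0.03 to 0.38 for MYF5 and -0.19 to 0.84 for MEF2C in newborn muscle. In fetal muscle it gave -0.20 to 0.53 for MYOD1 and -0.31 to 0.09 for MEF2C. Against 6 tissues it gave -0.04 to 0.42 for MYF5 and -0.27 to 0.60 for SIX4 (and -0.37 with a pseudocount of 0.1), and against brain -0.03 to 0.38 for MYF5 and -1.11 to 0.67 for SIX4. NCAM1 in fetal brain gave -0.08 to 0.28 (and -0.16 after quantile normalisation). MEF2C gave -1.16 to 0.02 in thymus, -0.97 to 0.30 in liver and -0.44 to 0.16 in kidney, where SIX4 gave -0.09 to 0.32. The causes were not tested.

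With 2 animals a genotype, a member that missed the threshold is not shown to be level. KO2, which stood apart in HSP90AA1, is 1 of the 2 KO animals. Absolute depth is unknown, so no counting error is given for PAX3 or other low values.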
